A study of Mus musculus with 753 samples.

Results

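The cells described here are 54 mouse keratinocytes to which the deposited annotation gives the identity IFE-B (basal interfollicular epidermis) and cluster 1 or 5. They were chosen by these annotation columns alone, 39 from cluster 1 and 15 from cluster 5, out of 373 IFE-B cells and 684 annotated cells in all. The other 319 IFE-B cells, of clusters 0, 2, 3 and 4, served for comparison. All cells came from mice labelled Gata6EFGPCreERT2 Rosa26-fl/STOP/fl-tdTomato, with genotype Cre (+/-) tdTomato (+/-), and every group received 4-hydroxytamoxifen on the back skin. The drug switches on tdTomato in cells that express Gata6 at that time and in their progeny, so lin+ cells carry tdTomato. Cells without it are lin-, a group that can also hold Gata6-lineage cells that escaped labelling.

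The mice were adults, and the skin was wounded after the labelling. Keratinocytes without CD45 were sorted from unwounded skin (day 0) or from wounds at 6, 9 or 11 days, and each well of a plate gave 1 Smart-seq2 library of 1 cell. The cells fall into 14 sets of 1 lineage, 1 day and 1 replicate, and 10 of the sets hold cells of clusters 1 and 5. A replicate of day 9 or 11 is 1 mouse, day 6 pooled several mice under labels that name no replicate, and the unwounded skin came from the mice of days 9 and 11. Replicate 1 forms the first batch, deposited as read counts (222 cells). The second batch, deposited as RPKM (reads scaled to gene length and sequencing depth), holds replicate 2 together with day 6 (462 cells). Values below were scaled so that each cell summed to 1000000, are given as parts of that total (ppm), and were compared within a batch. Errors are the SEM over cells, which share mice and are not replicates.

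The basal layer of the epidermis divides to renew the skin, and its cells hold on to the basement membrane by integrins and carry the keratins Krt5 and Krt14. A dividing cell copies its DNA with the MCM helicase and DNA polymerases while it makes histones, and then condenses its chromosomes and separates them on a spindle of tubulin. The growing hair follicle holds another dividing population, the matrix of the bulb, whose daughters form the inner root sheath with keratins of its own. Promoters of mitosis genes often carry CHR and CCAAT elements, and those of DNA replication genes often carry sites of the E2F factors.

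Promoters are shown for genes of mitosis, chromosome structure, histones and replication that were at least 2-fold higher in the cells of clusters 1 and 5 in both batches, and for Krt71, a keratin of the inner root sheath. Each runs from 250 bases before to 50 bases after the start of the gene, from RefSeq on build GRCm38.p6, at chr10:69352863-69353162 on the minus strand for Cdk1, chr11:99024140-99024439 on the minus strand for Top2a, chr13:23574131-23574430 on the plus strand for H2ac7, chr12:24708004-24708303 on the plus strand for Rrm2 and chr15:101743048-101743347 on the minus strand for Krt71. Capitals mark the letters searched for on both strands. These are CHR-like (TTTGAA or else TTCGAA), the CCAAT box, and E2F-like (TTTGGCGC or else TTTCCCGC or else TTTCGCGC). Cdk1 is the kinase that drives entry into mitosis, Top2a untangles chromosomes, H2ac7 encodes a histone H2A, and Rrm2 is a subunit of ribonucleotide reductase, which makes DNA precursors.
Cdk1: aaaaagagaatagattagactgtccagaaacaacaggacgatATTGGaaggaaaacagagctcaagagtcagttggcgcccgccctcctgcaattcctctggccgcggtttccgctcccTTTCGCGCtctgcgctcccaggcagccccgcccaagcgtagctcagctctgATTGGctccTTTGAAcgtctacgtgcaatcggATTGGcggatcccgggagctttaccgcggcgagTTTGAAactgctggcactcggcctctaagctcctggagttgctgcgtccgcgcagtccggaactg
Top2a: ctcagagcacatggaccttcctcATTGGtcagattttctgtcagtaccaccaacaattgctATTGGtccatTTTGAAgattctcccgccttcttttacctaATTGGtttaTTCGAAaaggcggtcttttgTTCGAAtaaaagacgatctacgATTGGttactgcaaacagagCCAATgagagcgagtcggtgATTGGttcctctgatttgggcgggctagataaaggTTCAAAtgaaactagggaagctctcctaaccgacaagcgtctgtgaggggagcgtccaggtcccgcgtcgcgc
H2ac7: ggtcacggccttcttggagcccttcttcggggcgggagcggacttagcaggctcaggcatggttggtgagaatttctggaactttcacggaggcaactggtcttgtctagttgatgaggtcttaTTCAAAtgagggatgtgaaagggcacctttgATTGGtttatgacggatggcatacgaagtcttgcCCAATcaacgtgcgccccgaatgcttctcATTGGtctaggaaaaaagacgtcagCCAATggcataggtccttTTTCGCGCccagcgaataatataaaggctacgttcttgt
Rrm2: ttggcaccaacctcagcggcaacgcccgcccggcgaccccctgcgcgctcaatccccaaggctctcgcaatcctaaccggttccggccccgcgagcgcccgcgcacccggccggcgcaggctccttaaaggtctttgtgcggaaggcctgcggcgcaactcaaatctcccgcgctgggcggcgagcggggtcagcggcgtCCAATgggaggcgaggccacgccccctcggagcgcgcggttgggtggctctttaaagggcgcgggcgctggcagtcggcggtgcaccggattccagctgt
Krt71: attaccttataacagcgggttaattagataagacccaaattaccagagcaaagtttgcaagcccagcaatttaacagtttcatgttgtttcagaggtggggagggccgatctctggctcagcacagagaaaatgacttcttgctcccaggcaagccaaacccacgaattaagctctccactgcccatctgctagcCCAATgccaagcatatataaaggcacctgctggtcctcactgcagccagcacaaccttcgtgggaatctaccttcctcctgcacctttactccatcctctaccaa

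Cdk1 and H2ac7 hold all 3 kinds of letters, Top2a holds the CHR-like letters and CCAAT, and Rrm2 and Krt71 hold CCAAT alone. The CHR-like letters stood in 66.7% of the promoters of 30 matched mitosis genes (of 39 listed) and in 74.2% of those of 31 spindle genes (of 37), against 21.7% of 27025 genes with a promoter of this length. CCAAT stood in 76.7% and 67.7% of the same promoters, in 100% of 29 histone promoters (of 30) and in 41.1% of all. The E2F-like letters stood in 41.9% of 43 replication genes (of 55) and in 2.12% of all. For 16 matched genes of the inner root sheath and hair matrix (of 24) the shares were 25.0%, 43.8% and 0%. A match describes letters and not a site in use.

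The cells of clusters 1 and 5 were mostly lin-. They made up 14.5% of IFE-B cells (exact 95% interval 11.1 to 18.5%, which covers counting error only). Among lin- IFE-B cells they were 47 of 197 (23.9%, 18.1 to 30.4%) and among lin+ IFE-B cells 7 of 176 (3.98%, 1.61 to 8.02%). The clusters were made from the expression of these same cells, so these shares are described and not tested.

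In replicate 2 they were most of the lin- IFE-B cells of late wounds, 12 of 17 at day 9 (70.6%, 44.0 to 89.7%) and 14 of 20 at day 11 (70.0%, 45.7 to 88.1%). Replicate 1 gave 8 of 21 at day 9 (38.1%, 18.1 to 61.6%) and 1 of 15 at day 11 (6.67%), so the mice of day 11 lay far apart. In unwounded skin they were 5 of 36 (13.9%) and 3 of 31 (9.68%) lin- IFE-B cells, and at day 6 they were 4 of 57 (7.02%). Among lin+ cells, day 9 of replicate 1 gave 5 of 29 (17.2%, 5.85 to 35.8%), and day 0 of replicate 1 and day 11 of replicate 2 gave 1 cell each. The other 4 lin+ sets, with 17 to 44 IFE-B cells, held none. All 15 cells of cluster 5 were of the first batch, so that cluster and the batch cannot be told apart.

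**Figure D1:**
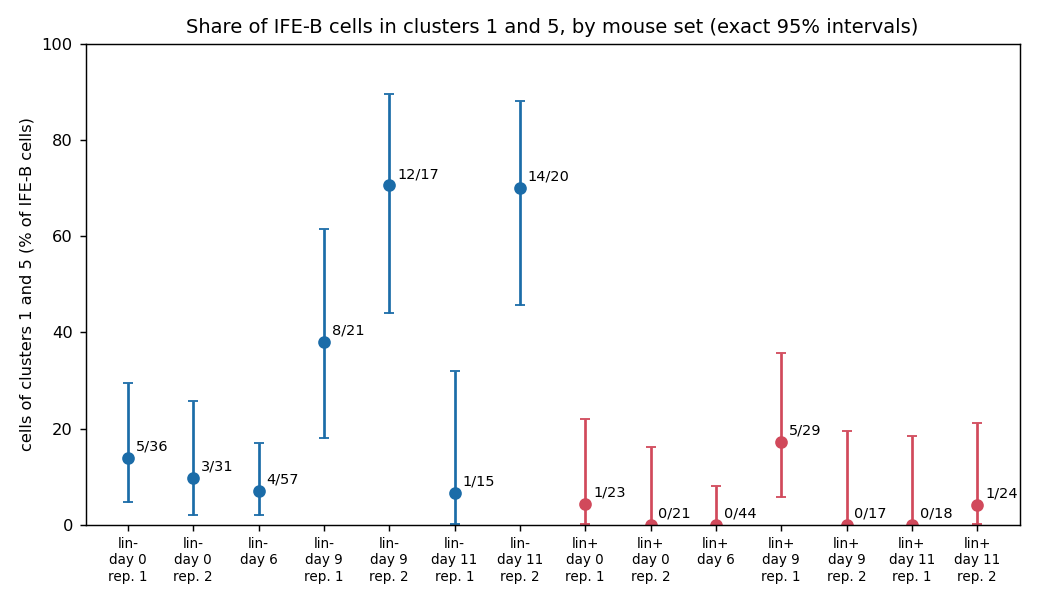
Share of IFE-B cells in clusters 1 and 5 (percent, y axis) in each of the 14 sets (x axis, lin- in blue, lin+ in red), with exact 95% intervals and the cells counted beside each point. The lin- sets of days 9 and 11 in replicate 2 stand highest, at 70.6% and 70.0%, and the lin- set of day 11 in replicate 1 lies at 6.67%.

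More genes were detected in these cells than in other IFE-B cells. The median was 3470 genes in the first batch and 3495 in the second, against 2361.5 and 2438, and 0 of the 54 cells but 7 and 29 of the others had under 1000 genes. Median reads per cell were 5787139 and 2125711, against 4559956.5 and 2848069. The part of gene detection in the differences below was not tested, beyond an alternative that held the other cells to at least 1000 genes.

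The same expression values served for the clustering, so the differences from other IFE-B cells carry no test. Of 6795 genes with a mean of at least 10 ppm on one side in each batch, 719 (10.6%) were at least 2-fold higher in both batches and 328 (4.83%) at least 2-fold lower, on the scale of the mean plus 1. In the first batch alone 23.9% were higher, and in the second alone 26.5%. With every mouse set given the same weight the counts were 351 higher and 516 lower. The median gene differed by 0.04 on the log2 scale in the first batch and by 0.40 in the second. With the other cells held to at least 1000 genes the shares were 8.79% higher and 5.46% lower, and with lin- cells of the same mouse sets alone 15.4% and 5.92%.

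The markers given for these cells are 5 genes of dividing cells. All 5 had higher means in both batches, and 3 of 5 were at least 2-fold higher in both, against 10.6% of all genes. Tubb5, a beta-tubulin of the spindle, measured 529 ± 83.7 against 128 ± 38.0 ppm in the first batch and 1798 ± 303 against 517 ± 61.1 in the second. Its means in the 3 first-batch sets with 3 or more cells were 499 (lin+ day 9), 601 (lin- day 0) and 464 (lin- day 9). In the 4 such sets of the second batch, all lin-, they were 706 at day 0, 634 at day 6, 1829 at day 9 and 2383 at day 11. It was higher in 7 of 7 sets that hold 3 or more cells on each side, and 52 of 54 cells reached 10 ppm, against 180 of 319.

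Stmn1, which destabilizes microtubules, was likewise higher in 7 of 7 sets. It measured 375 ± 63.5 against 107 ± 20.4 ppm in the first batch and 925 ± 118 against 394 ± 39.2 in the second. H2ax, a histone variant phosphorylated at DNA breaks, measured 1571 ± 315 against 171 ± 38.4 ppm in the first batch and 592 ± 144 against 205 ± 41.9 in the second. It was higher in 6 of 7 sets, and the exception was day 6, where 3 of 4 cells had none.

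Cenpa and Ccnb2 differed less in the second batch and were below the 2-fold limit there. Cenpa, the histone of the centromere, measured 358 ± 93.6 against 91.7 ± 29.4 ppm in the first batch and 303 ± 88.3 against 196 ± 37.1 in the second. Ccnb2, a cyclin of mitosis, measured 371 ± 68.2 against 67.6 ± 22.5 ppm in the first batch and 262 ± 83.9 against 188 ± 33.2 in the second. Cenpa was higher in 3 of 7 sets and Ccnb2 higher in 4 of 7 sets, and the median cell of the second-batch sets of days 9 and 11 had 0 and 0 ppm of Ccnb2. Without day 6 the second-batch log2 differences were 0.01 for Cenpa, 0.02 for Ccnb2 and 0.85 for Stmn1, and 2 of 5 markers passed the limit.

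Levels of different genes can be compared per length, as mean RPKM of the second batch. Among the 5 markers Tubb5 was highest, with a mean RPKM of 1002, followed by 538 for Stmn1, 344 for H2ax, 173 for Cenpa and 154 for Ccnb2. Top2a had a mean RPKM of 132 and Mki67 of 32.1. The basal keratins stood at 749.8 for Krt14 and 540.2 for Krt5, against 3945 and 1887 in other IFE-B cells, and the hair keratin Krt71 reached 494.

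Of 34 mitosis genes compared, 19 were at least 2-fold higher in both batches and 0 lower, against 10.6% of all genes higher and 4.83% lower, with a median log2 difference of 2.64 in the first batch and 1.16 in the second. Fbxo5, an inhibitor of the anaphase-promoting complex, led them and measured 62.0 ± 20.1 against 1.17 ± 0.626 ppm in the first batch and 71.7 ± 21.8 against 13.1 ± 5.22 in the second. Aurkb, a kinase of the dividing chromosomes, measured 174 ± 63.7 against 10.4 ± 5.04 ppm in the first batch and 141 ± 38.0 against 34.5 ± 7.76 in the second and was higher in 7 of 7 sets. Cdk1 measured 274 ± 63.2 against 21.4 ± 8.22 ppm in the first batch and 172 ± 41.0 against 50.4 ± 9.77 in the second and was higher in 6 of 7 sets. Pttg1, the inhibitor of separase, stood at the other end with 53.4 ± 28.2 against 47.1 ± 13.1 ppm in the first batch and 69.5 ± 30.4 against 162 ± 30.7 in the second.

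Spindle genes gave 21 of 31 higher and 0 lower, against 10.6% and 4.83% of all genes. Their medians were 2.23 in the first batch and 1.34 in the second. Kif22, a motor that moves chromosomes, measured 323 ± 119.9 against 18.6 ± 8.83 ppm in the first batch and 237 ± 65.5 against 66.3 ± 15.8 in the second. Of 27 centromere genes 11 were higher and 1, Cenpb, was lower, with medians of 2.17 in the first batch and 0.80 in the second. Spc25, a subunit of the kinetochore, measured 75.8 ± 21.2 against 4.71 ± 2.72 ppm in the first batch and 271 ± 81.9 against 91.5 ± 16.9 in the second.

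These counts were lower without day 6, which gave 4 of these cells and 44 lin+ and 53 lin- other IFE-B cells. Then 12 of 35 mitosis genes, 12 of 31 spindle genes and 5 of 27 centromere genes were higher, against 8.76% of all genes. The centromere count was also 7 of 27 without day 11 of replicate 2 and 5 of 27 against other cells with at least 1000 genes.

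For chromosome structure 7 of 20 genes were higher and 0 lower, against 10.6% and 4.83% of all genes. Top2a measured 334 ± 71.9 against 26.0 ± 8.99 ppm in the first batch and 232 ± 50.2 against 85.5 ± 15.1 in the second and was higher in 7 of 7 sets. Mki67, which coats mitotic chromosomes and marks cycling cells, measured 372 ± 119 against 34.2 ± 11.0 ppm in the first batch and 57.4 ± 18.0 against 22.0 ± 3.93 in the second and was higher in 5 of 7 sets. Ncaph, a condensin subunit, was higher in 7 of 7 sets.

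DNA replication genes gave 22 of 51 higher and 0 lower, against 10.6% and 4.83% of all genes. Their medians were 1.39 in the first batch and 1.44 in the second. Rrm2 measured 245 ± 81.5 against 6.97 ± 3.51 ppm in the first batch and 273 ± 61.6 against 44.6 ± 9.54 in the second, and Cdc45, which activates the helicase, 169 ± 74.4 against 7.42 ± 4.83 ppm in the first batch and 73.3 ± 30.2 against 10.6 ± 4.70 in the second. Both were higher in 7 of 7 sets. Pcna, the sliding clamp of DNA polymerase, measured 275 ± 73.8 against 109.8 ± 23.4 ppm in the first batch and 275 ± 47.2 against 183 ± 46.3 in the second and did not reach the limit in the second. With lin- cells of the same mouse sets alone 34 of 50 replication genes and 11 of 20 genes of chromosome structure were higher, against 15.4% of all genes.

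Histone genes gave 12 of 21 higher and 0 lower, against 10.6% and 4.83% of all genes. Their medians were 2.43 in the first batch and 1.77 in the second. H2ac7 measured 1076 ± 167 against 50.6 ± 23.0 ppm in the first batch and 243 ± 54.1 against 45.7 ± 8.74 in the second, and H2ac13 measured 746 ± 124 against 36.2 ± 16.8 ppm in the first batch and 312 ± 64.6 against 53.8 ± 11.3 in the second. The H2A copies are nearly identical in sequence, so reads of one may be counted for another and single copies are uncertain. H2ac23 and H2ac24 had values in the second batch alone, where they averaged 4257 against 1003 and 5527 against 1306 ppm.

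Genes of entry into the cycle differed less. Of 12 compared, 3 were higher (Ccnd1, Cdk2 and E2f8) and 1 lower (E2f1), and leaving out 1 mouse set at a time gave 1 to 4 higher, with the lowest count without day 9 of replicate 1. Ccnd1, cyclin D1, measured 148 ± 65.9 against 46.6 ± 15.6 ppm in the first batch and 114 ± 25.8 against 21.5 ± 6.16 in the second. Myc, a driver of growth, had lower means over a batch that missed the limit in the second, 209 ± 92.1 against 635 ± 124 ppm in the first batch and 152 ± 49.0 against 294 ± 43.0 in the second. It was higher in 3 of 7 sets, among them lin+ day 9 of replicate 1 with 681 against 660.0 ppm and lin- day 6 with 236 against 181. Of 11 genes of arrest 1 was higher (Cdkn2b), a share close to the 10.6% of all genes, and the count was 0 without day 9 of replicate 1 and 3 without day 9 of replicate 2. The inhibitor Cdkn1a measured 673 ± 288 against 878 ± 164 ppm in the first batch and 473 ± 131 against 574 ± 121 in the second. Of 19 genes of ribosome biogenesis 2 were higher, which was also close to that share. Among stress genes 1 of 10, Hspa1a, a heat shock protein, was higher, at 1179 ± 611 against 306 ± 79.2 ppm in the first batch and 506 ± 157 against 241 ± 49.5 in the second. This share was close to that of all genes too, and the count was 0 without day 6, without day 0 of replicate 2 and without either replicate of day 9.

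Cell by cell, the cycling genes were uneven. In the first batch the median cell had 20 of the 39 listed mitosis genes at 10 ppm or more, with a range of 0 to 29, against a median of 1 in other IFE-B cells. In the second batch the median was 11.5 and the range 0 to 33, against a median of 2. At least 1 read of Mki67, Top2a, Ccnb1 or Pcna was found in 18 of 20 cells (90.0%, exact interval 68.3 to 98.8%) and in 30 of 34 (88.2%, 72.5 to 96.7%), against 52.5% of 122 and 52.8% of 197 other cells. After thinning each cell to 500000 reads, which left out 2 of the 54 cells, the shares were 90.0% and 81.2%, against 48.3% and 52.7%. The outer bulge (OB) cells that share cluster 1 gave 35.0% of 20 and 39.0% of 82 before thinning.

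**Figure D2:**
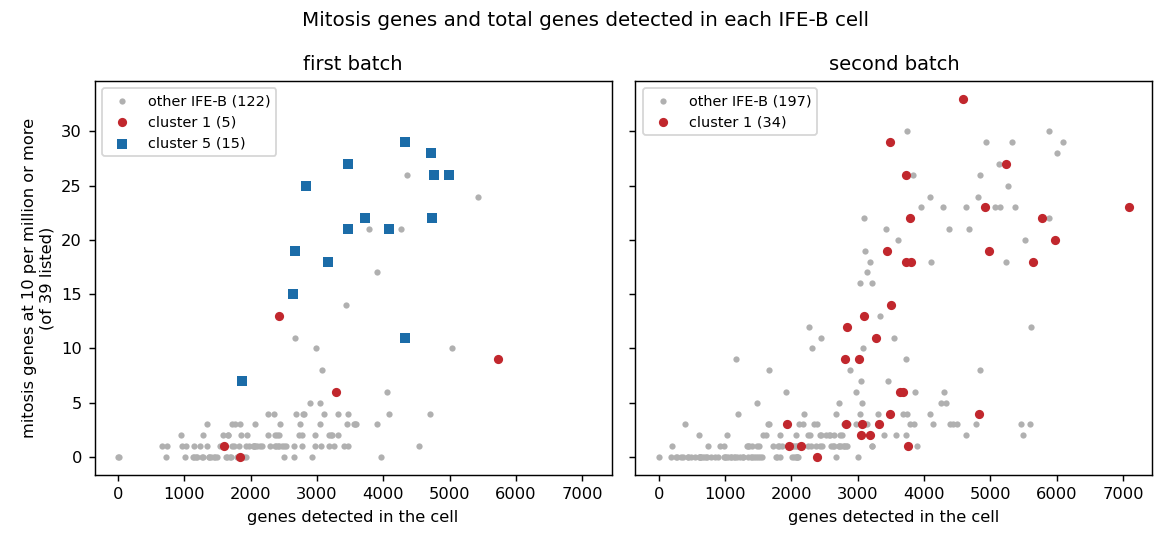
Number of the 39 listed mitosis genes at 10 ppm or more (y axis) against the genes detected (x axis) in each IFE-B cell, by batch, with cells of clusters 1 and 5 set apart by colour from the other IFE-B cells. In the first batch cluster 5 lies between 7 and 29 mitosis genes, and in the second cluster 1 spreads from 0 to 33 and overlaps the other cells.

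The label of a basal interfollicular cell did not hold for all 54 cells. Krt14 reached 10 ppm in 41 of 54 cells, against 275 of 319 other IFE-B cells, and Krt5 in 46 of 54, against 278. Itga6, an integrin of the basal surface that was stained for the sort, reached it in 11 of 54, against 105. The cells are therefore called here by their clusters.

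Krt14 was lower in 7 of 7 sets. It measured 12671 ± 2167 against 22919 ± 1959 ppm in the first batch and 1365 ± 411 against 6280.4 ± 451 in the second. In the first batch its set mean was 22321 in lin+ cells of day 9, 11226 in lin- cells of day 0 and 5338 in lin- cells of day 9. In the second it was 5117 at day 0, 971 at day 6, 980.3 at day 9 and 964 at day 11. Within the second batch the wound sets were the lowest, and their median cells at days 9 and 11 had 46.1 and 149 ppm.

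Krt5 was lower in 7 of 7 sets, with 4168 ± 833 against 7827 ± 557 ppm in the first batch and 946 ± 161 against 3014 ± 184 in the second. Itga6 measured 8.13 ± 5.09 against 72.6 ± 14.3 ppm in the first batch and 28.2 ± 13.2 against 58.6 ± 11.5 in the second and was lower in 6 of 7 sets. Over the basal list 3 of 15 genes, Itga6 and Col17a1 among them, were at least 2-fold lower in both batches and 0 higher, against 4.83% of all genes lower. Leaving out 1 mouse set at a time gave 2 to 5 lower (2 without day 9 of replicate 2, and 5 without day 9 or day 11 of replicate 1), and lin- cells of the same mouse sets gave 9 of 16, against 5.92% of all genes. The median log2 differences were -0.66 in the first batch and -1.14 in the second. Itgb1, the beta-1 integrin, was higher in 7 of 7 sets and measured 86.3 ± 25.9 against 31.1 ± 5.70 ppm in the first batch and 108 ± 31.6 against 86.2 ± 15.0 in the second.

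Genes of the differentiating layers were low, with 6 of 10 at least 2-fold lower and 0 higher, against 4.83% of all genes lower. Krt1, the keratin of the spinous layer, averaged 0.0502 against 475 ppm in the first batch and 0.372 against 85.0 in the second. Krtdap, of the same layers, measured 107 ± 103 against 711 ± 272 ppm in the first batch and 26.7 ± 24.4 against 1514 ± 394 in the second. The wound keratin Krt6a measured 108 ± 56.0 against 333 ± 72.9 ppm in the first batch and 87.2 ± 60.0 against 85.8 ± 26.8 in the second. It was lower in 7 of 7 sets although its second-batch means were close. In lin- cells of day 0, replicate 2, the set means were near the floor, at 0.527 against 0.622 ppm. At day 6 they were 0 against 12.4.

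Serpinb2, a protease inhibitor, was listed at 0 in all 20 cells of the first batch and reached 10 ppm in 1 of 34 cells of the second (mean 28.0), against means of 131 and 2724 in other cells. Ifngr1, a subunit of the interferon-gamma receptor, averaged 5.13 against 68.8 in the first batch and 13.0 against 181 in the second. Of 9 genes of the upper follicle 2 were lower and 0 higher, against 4.83% of all genes lower and 10.6% higher. The count of lower genes was 1 without day 0 of replicate 1 and 4 without day 9 of replicate 1. Gata6 itself averaged 12.8 against 33.4 in the first batch, and was listed at 0 in all 34 cells of the second, against 7.60. These means mix the lineages unequally, since 6 of 20 and 1 of 34 of these cells but 64 of 122 and 105 of 197 of the others were lin+. Among lin+ cells of day 9, replicate 1, Gata6 averaged 50.8 against 6.29 ppm, the opposite order, with 2 of 5 cells at 10 ppm or more.

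The genes with the largest difference common to both batches, picked after their values were seen, were led by Krt25, Krt71, Krt28, Rcn3, Krt73, Dlx3 and Dlx2. Krt25, Krt27, Krt28, Krt71 and Krt73 are keratins of the inner root sheath, and Dlx3 is a transcription factor of the hair matrix. Krt25 (chromosome 11, 99315516 to 99322951), Krt27 (99345565 to 99351118) and Krt28 (99365007 to 99374903) lie together in the type I keratin genes, and Krt71 (chromosome 15, 101733949 to 101743097) and Krt73 (101793304 to 101802360) in the type II keratin genes (RefSeq, GRCm38.p6).

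A list of 24 genes of the inner root sheath and hair matrix was written after those values were seen and serves as a description. Of 13 compared, 10 were at least 2-fold higher in both batches and 1, Krt35, was lower, against 10.6% and 4.83% of all genes. Krt71 and Krt28, for example, reached the level for comparison through these cells alone and could not be called lower. The share of all genes is therefore no yardstick for this count. Later counts of this list likewise describe the values that chose it. Krt71 averaged 984 ± 984 against 3.82 ± 3.35 ppm in the first batch and 839.5 ± 467 against 0.400 ± 0.400 in the second, and 1 of 20 and 6 of 34 cells reached 10 ppm. Krt28 averaged 389.6 ± 297 against 1.24 ± 1.20 ppm in the first batch and 795 ± 311 against 0 in the second, with 3 of 20 and 10 of 34 cells. Lgr5, which marks stem cells of the lower follicle, measured 82.0 ± 39.5 against 2.88 ± 2.70 ppm in the first batch and 65.0 ± 21.2 against 0.0450 ± 0.0429 in the second and was higher in 6 of 7 sets. In the first batch the list rests on 1 mouse, since without day 9 of replicate 1 only 5 of its genes could be compared and 1 of them, Lgr5, was higher.

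The hair keratins were concentrated in a few cells. In all, 18 of 54 cells (33.3%, exact interval 21.1 to 47.5%) carried at least 50 ppm of 1 or more of the 5 keratins. This held for 10 of 319 other IFE-B cells (3.13%, 1.51 to 5.69%), for 4 of 102 OB cells of cluster 1 (3.92%) and for 8 of 209 cells of the rest (3.83%). Among the 54, the highest of the 5 keratins was at most 2.79 ppm in the cells below this limit and at least 68.7 in those above it. Of the 18 cells, 12 carried 2 or more of the keratins and 5 carried all 5.

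In those 5 cells the keratins summed to 45774, 32327, 29817, 10466 and 8449.6 ppm, and Krt14 stood at 13.1, 0, 0, 0 and 11.3. A lin- cell of day 9, replicate 2, for example, held 9964 ppm of Krt71, 9013 of Krt28, 6323 of Krt25, 5463 of Krt73, 1565 of Krt27 and 514 of Dlx3. Of the 13 cells of clusters 1 and 5 with Krt14 under 10 ppm, 10 were among the 18.

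All 18 were lin- cells of late wounds, 3 of 8 at day 9 of replicate 1, 7 of 12 at day 9 of replicate 2 and 8 of 14 at day 11 of replicate 2. There were 0 among the 7 lin+ cells, the 8 lin- cells of day 0 and the 4 of day 6. These groups are small, and for the 5 lin+ cells of day 9 the exact interval of the share runs from 0 to 52.2%. By cluster they were 16 of 39 cells of cluster 1 and 2 of 15 of cluster 5.

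**Figure D3:**
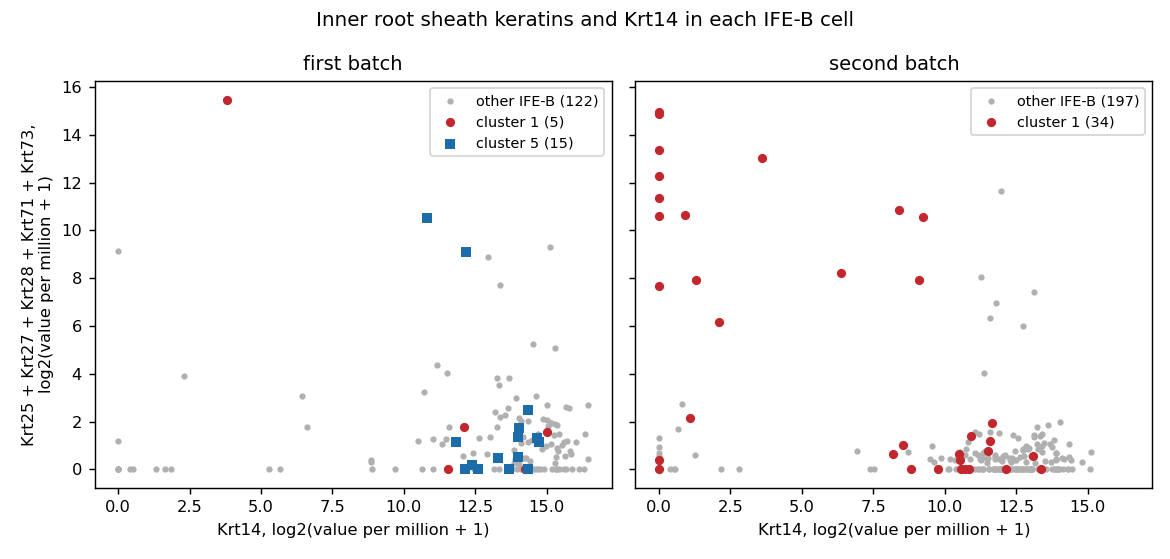
Sum of Krt25, Krt27, Krt28, Krt71 and Krt73 (y axis) against Krt14 (x axis), both as log2 of the value in ppm plus 1, in each IFE-B cell, by batch, with cells of clusters 1 and 5 set apart by colour. The 5 cells with all 5 keratins lie at the top with Krt14 values of 0 to 13.1 ppm, and 10 of 319 other IFE-B cells also pass the limit of 50.

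Cycling genes were found in cells with and without hair keratins. In the second batch 14 of 15 cells with them and 16 of 19 without had a read of Mki67, Top2a, Ccnb1 or Pcna. With the 18 cells left out, 21 of 34 mitosis genes, 17 of 47 replication genes and 15 of 23 histone genes were at least 2-fold higher in both batches, against 9.13% of all genes (6.35% lower), and the hair list gave 2 of 6. Of the 5 markers Tubb5 alone then passed the limit, with log2 differences of 2.06 in the first batch and 1.85 in the second. In the second batch H2ax moved from 1.53 to 0.86 and Stmn1 from 1.23 to 0.93.

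**Figure D4:**
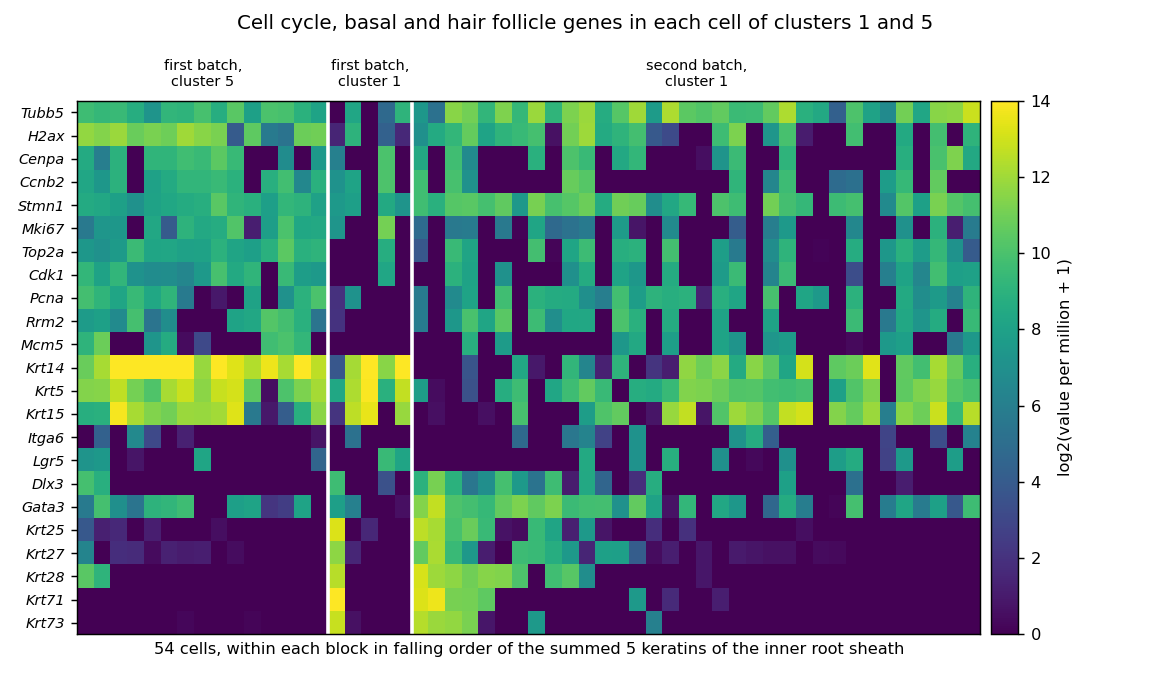
Values of 23 genes (rows) in each of the 54 cells (columns), as log2 of the value in ppm plus 1, in blocks of batch and cluster and in falling order of the 5 summed hair keratins within a block. Krt14 and Top2a are present in all 15 cells of cluster 5, and the cells of cluster 1 with the highest hair keratins have Krt14 near 0.

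Markers of other cell types were checked. None of 11 immune genes reached the level for comparison, and their sum was at most 1.11 ppm in the first batch and 293 in the second (up to 1098 and 3849 in other IFE-B cells), with Cd52, Cd3g and Tyrobp at 0 in all 54 cells. The sum of 9 dermal and endothelial genes was at most 62.7 and 1946 (2603 and 489 in other cells), with Pecam1 and Cdh5 at 0 in all 54. Acta2, the smooth muscle actin and the gene of this list that could be compared, went in opposite directions, with a log2 difference of -4.07 in the first batch and 4.52 in the second. It reached 10 ppm in 0 of 20 and 4 of 34 cells, against 6 of 122 and 4 of 197. The sum of 7 melanocyte and Merkel genes reached 1252 and 74117, with Atoh1 at 0 in all 54. Both genes of this list that could be compared, Krt8 and Pmel, were at least 2-fold higher in both batches, against 10.6% of all genes. Krt8 reached the level for comparison through these cells alone and could not be called lower, so this count is no support for the list. Pmel had a median of 0 RPKM in these cells of the second batch, and 1 cell described below held 5651 ppm. Krt8, a keratin of simple epithelia and Merkel cells, measured 62.6 ± 62.6 against 2.37 ± 1.65 ppm in the first batch and 35.5 ± 22.0 against 0.0139 ± 0.0139 in the second. It was higher in 6 of 7 sets, with the lin+ set of day 9, replicate 1, near the floor at 0.0708 ppm. It reached 10 ppm in 1 of 20 and 4 of 34 cells. The part of these cell types in the differences was not tested.

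The highest sum came from 1 cell. This lin- cell of day 9, replicate 2, in cluster 1, carried 59211 ppm of Dct, 9256 of Tyrp1 and 5651 of Pmel, all genes of pigment synthesis, with Krt14 and Krt5 at 0. The next highest sum of the 3 genes among the 54 was 982. A lin- IFE-B cell of day 6 outside these clusters had a sum of 43872. Without both cells 724 genes were higher and 330 lower in both batches.

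Among genes of the outer bulge 3 of 10 were higher (Lgr5, Mfap2 and Tbx1) and 1 lower (Nfatc1), against 10.6% and 4.83% of all genes. Mfap2, a protein of elastic microfibrils, measured 217 ± 127 against 27.7 ± 20.5 ppm in the first batch and 708 ± 156 against 0.151 ± 0.111 in the second and was higher in 7 of 7 sets. In lin+ cells of day 9, replicate 1, its mean was near the floor at 0.292 ppm, with 1.46 in the highest cell. Tbx1, a transcription factor of the follicle, measured 249 ± 189 against 13.8 ± 6.77 ppm in the first batch and 176 ± 53.8 against 9.15 ± 5.90 in the second. The OB cells of cluster 1 averaged more of Lgr5 (178 and 151 ppm in the batches) and of Tbx1 (395 and 293), while their Mfap2 stood at 476 and 602.

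**Figure D5:**
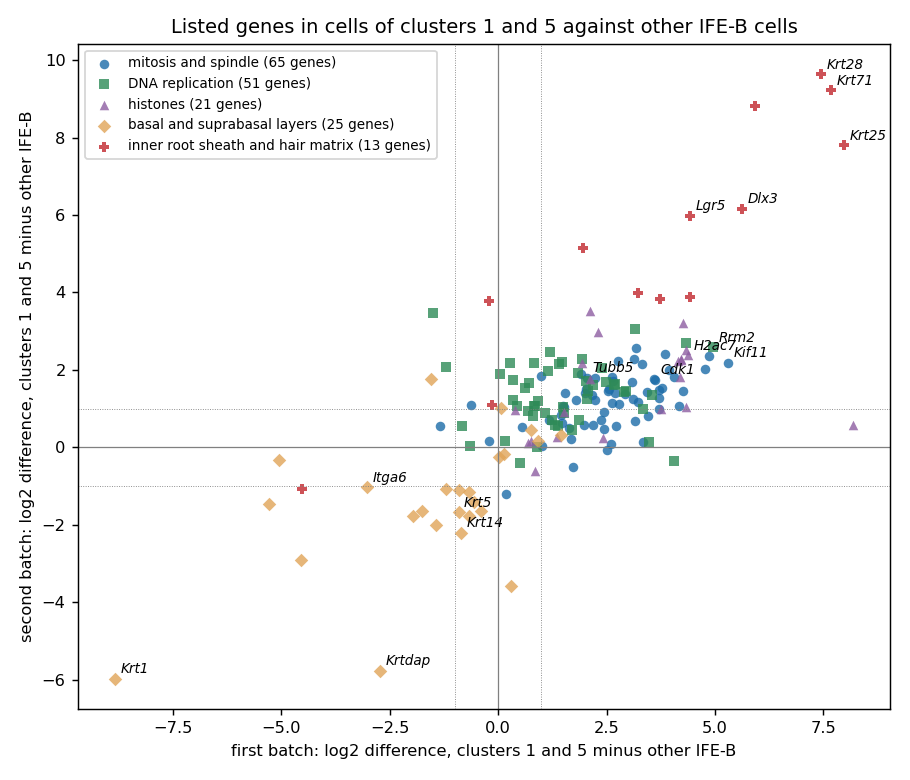
Log2 difference of the cells of clusters 1 and 5 minus other IFE-B cells in the first batch (x axis) and in the second (y axis), 1 point per gene of 5 groups of lists, with dotted lines at 1 and -1. Genes of mitosis, replication and histones lie mostly to the upper right, basal and suprabasal genes mostly to the lower left, and the hair genes reach the highest differences.

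Cluster 5 and cluster 1 can be set side by side in the first batch alone, with 15 and 5 cells. Of 7570 genes compared, 44.9% were at least 2-fold higher in cluster 5 and 26.9% lower, with a median log2 difference of 0.59. Mitosis genes gave 27 of 37 higher and 2 lower, replication genes 45 of 52 and 4, centromere genes 24 of 28 and 1, and histones 21 of 27 and 1. H2ax averaged 2058 ppm in cluster 5 and 111 in cluster 1, and Top2a 418 and 82.8. Krt14 averaged 12912 and 11948.

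The 15 cells of cluster 5 had 7 to 29 of the mitosis genes at 10 ppm or more, and the 5 cells of cluster 1 had 0 to 13. Krt71 averaged 3938 ppm in cluster 1, where it came from 1 cell, and 0 in cluster 5. With cluster 1 alone, over both batches, 7 of 26 mitosis genes, 13 of 26 spindle genes, 1 of 19 centromere genes, 5 of 40 replication genes and 1 of 19 histone genes were at least 2-fold higher than in other IFE-B cells, against 8.28% of all genes (7.78% lower). None of the 5 markers then passed the limit in both batches, and over the 5 first-batch cells of cluster 1 the log2 difference was 0.47 for Tubb5, 0.80 for Stmn1 and -0.62 for H2ax. The hair list gave 9 of 12.

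Late lin- cells of the second batch allow a comparison in the same 2 mice, with 26 cells of cluster 1 beside 11 other IFE-B cells. There 40.2% of 8391 genes were at least 2-fold higher and 15.5% lower, with a median of 0.61. Replication genes gave 52 of 54 higher with a median of 2.56, histones 19 of 21 with a median of 2.70, and the hair list 14 of 16. Mitosis genes gave 12 of 36 higher and 2 lower with a median of 0.49, and spindle genes 8 of 34 higher, both shares under that of all genes. Of the markers 2 of 5 were higher.

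Late wounds (days 9 and 11) were compared with unwounded skin in lin- cells, to ask whether cells of these clusters differ with healing. The limma fit on log2 means of the 7 sets with 3 or more cells had 1 residual degree of freedom. Of 8473 genes 0 passed an adjusted p of 0.05 (0% called), 823 had an unadjusted p under 0.05, and the smallest adjusted p was 0.487. The edgeR quasi-likelihood test on summed reads called 15 of 12982 genes. In a simulation of this comparison the fit recovered 3.2% of genes changed 8-fold, so the count of 0 says little.

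In the first batch Krt14 had a set mean of 5269 ppm at day 9 and 10174 at day 0. In the second it had 892 at day 9, 873 at day 11 and 5593 at day 0. The log2 difference of the fit over both batches was -2.03 ± 0.48 (SE, limma, adjusted p = 0.487). Krt71 measured 2429 at day 9 of the first batch, and 1872 and 249 at days 9 and 11 of the second. Krt28 measured 961, 1429 and 528 in the same sets. Both were listed at 0 in all 8 lin- cells of day 0. In the first batch H2ax measured 1836 at day 9 and 444 at day 0. In the second it measured 722 at day 9, 606 at day 11 and 316 at day 0 (log2 difference 1.38 ± 0.66). Top2a measured 258 at day 9 and 504 at day 0 in the first batch. In the second it measured 249 at day 9, 215 at day 11 and 150 at day 0 (log2 difference -0.01 ± 0.96). These means are scaled between sets of a batch. Of 38 mitosis genes in the fit 29 had a positive estimate, with a median of 2.24 beside 1.3 over all genes, which is itself positive. Centromere (2.32), replication (1.93) and spindle genes (1.57) also lay above that median. Histones (0.80) and chromosome structure (0.31) lay below it. No gene was called, so no change with healing can be read from these medians.

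Day 6 against days 9 and 11 gave 0 called of 8473 in the same fit (0% called), with 231 genes at an unadjusted p under 0.05, and edgeR called 4. In the second batch H2ax averaged 94.4 ppm at day 6, 722 at day 9 and 606 at day 11. The fit, which also holds the first batch, gave a log2 difference of -2.90 ± 0.82 (SE, limma). The lowest, median and highest of the 4 cells of day 6 had 18.3, 204 and 2109.6 ppm of Tubb5, a range that overlaps every other set of the second batch. Day 6 is 1 set, so its spread was taken from the other sets. Day 11 was not tested against day 9, because at least 2 sets on each side were asked for there and day 11 has 1 with 3 or more cells.

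Only the mouse of day 9, replicate 1, had 3 or more of these cells in both lineages, so lin+ and lin- cells are given as values with no test. Krt14 in its 5 lin+ cells, all of cluster 5, was 16485 at the lowest, 21052 at the median and 27468 ppm at the highest. In its 8 lin- cells it was 13.1, 4517 and 16655, so the groups overlapped narrowly. Of the lin- cells 6 were of cluster 5, with a mean of 6382.

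Cycling genes overlapped between the lineages. H2ax ran from 1869 to 4163 ppm in lin+ cells (median 2357) and from 1.74 to 3394 in lin- cells (median 1879). Tubb5 ran from 151 to 708 (median 554) and from 0 to 980.0 (median 368). Myc averaged 681 in lin+ and 93.7 in lin- cells. The hair genes Krt28, Dlx3 and Lgr5 were listed at 0 in all 5 lin+ cells, and averaged 974, 273 and 80.9 ppm in the lin- cells. All 5 lin+ cells were of cluster 5, and the 6 lin- cells of that cluster averaged 321, 230 and 108 ppm.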

How the data were processed

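Single cells were sequenced by Smart-seq2, without molecular identifiers, and 684 annotated cells of 753 samples (6 of them blank wells) were analysed. The submitters' notes name Trimmomatic 0.27, STAR 2.2, featureCounts, Seurat 3.2.2 and the build GRCm38 (mm10). For the first batch the authors deposited raw read counts per gene. For the second they deposited RPKM, as the steps between its values show, although their methods do not name this unit. Reads were recovered from RPKM in 461 of 462 cells (on average 99.9965% of values within 0.02 of a whole read), and were used for depth, thinning to 500000 reads and edgeR.

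Of 25001 genes, 19609 had values in both batches after 314 pairs of symbols were merged, and 3019 and 1975 were measured in only 1 batch. Values were scaled to a cell total of 1000000 (ppm). Batches differ in unit, so no level was compared between them. Cells and identities were those of the authors' annotation, with no further filter and no doublet caller. The members and the gene lists were chosen with earlier results of these data known, and the list of the inner root sheath and hair matrix was written after the values had been seen. The named genes were the markers, genes given in advance by name, and in each list up to 4 highest and 2 lowest by mean log2 difference with at least 20 ppm on one side in both batches, while other genes named were chosen after their values were seen.

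Means were compared as log2 of the mean plus 1, in genes with at least 10 ppm on one side in each batch, at a limit of 2-fold. Comparisons of days used log2 set means of sets with at least 3 cells in limma 3.58.1 (R 4.3.3), with Benjamini-Hochberg adjustment, and edgeR 4.0.16 as an alternative. The counts in the first batch and RPKM in the second were the reason for limma on scaled values as the main test. The fit was tested on simulated data, where it recovered 0.8% of genes changed 4-fold and 3.2% changed 8-fold, and 60.8% of its calls were false. Shares carry exact (Clopper-Pearson) 95% intervals. Promoters came from RefSeq on GRCm38.p6. Other steps used Python 3.11.15 with pandas 2.3.3, numpy 2.4.6, scipy 1.17.1 and matplotlib 3.10.9. Alternatives were another pseudocount, no filter on low values, mean of set means, a 4-fold limit, cluster 1 alone, and leaving out each mouse set. A further 1270 per-sample columns in 8 tables were not used.

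Depth of the 54 cells ran from 48234 to 7790763 reads. Reads without molecular identifiers are not independent molecules, so intervals cover counting error only.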

Additional observations from a re-analysis of the deposited data

Results flagged for a closer look

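In the 4 sets with 4 to 10 cells of clusters 1 and 5, 10 measures were searched by Dixon's test for a cell far from the rest. They were gene values, as log2 of the value in ppm plus 1, and the number of genes detected in the cell. The test marked 14 of 40 groups, and cells with a gene listed at 0 make up much of that count. The nominal rate of the test, about 1 in 20, is for independent and normally distributed values. It does not apply to values with many at 0 or to several measures of the same cells, so the count is a description. The cells of a set come from the same skin, and no cause of these differences was tested.

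Among the 5 lin+ cells of day 9, replicate 1, the lowest cell for Tubb5 had 7.25 (the others 8.95 to 9.47). A different cell of that set had 0 for Cenpa (8.99 to 9.69). Among the 5 lin- cells of day 0, replicate 1, the lowest cell for Tubb5 had 4.79 (8.73 to 10.0). A different cell of that set had 0 for Ccnb2 (8.86 to 10.1) and 0 for Top2a (8.70 to 10.4). Cenpa, Ccnb2 and Top2a were thus each listed at 0 in 1 cell of a set where the other 4 carried the gene. Tubb5 was low but present in the cells flagged for it. The day 0 cell with the lowest Tubb5 held 1093 ppm of Ccnb2 and 2138 of Mki67.

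Among the 4 lin- cells of day 6, 1 cell alone had H2ax (8.49), Cenpa (8.77) or Mki67 (7.11), and the other 3 were at 0 for that gene. Another cell there had 0 for Krt14 (9.78 to 10.6 in the others), and a further cell had 0 for Top2a (7.42 to 8.91). Among the 8 lin- cells of day 9, replicate 1, the lowest cell had 0 for Tubb5 (7.94 to 9.94), 1.45 for H2ax (9.06 to 11.7), 3.82 for Krt14 (10.8 to 14.0) and 8.34 for Krt5 (10.5 to 12.3). It was 1 and the same cell for these genes, the cell of cluster 1 whose hair keratins summed to 45774 ppm.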

How the results depend on the processing

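The counts of genes at least 2-fold higher (719) and lower (328) in both batches moved by over 1.5 times with a pseudocount of 10 (403 and 200), with the mean of set means (351 and 516) and with a 4-fold limit (165 and 120). With no filter on low values 17372 genes were compared in place of 6795, and 1018 were higher and 922 lower. These counts rest on different numbers of genes, so their ratio does not show how the shares moved. With cluster 1 alone 507 of 6520 were lower. The other 13 and 11 alternatives for these counts, the 1018 higher among them, stayed within 1.5 times as raw counts. Leaving out 1 mouse set gave 553 to 822 higher and 299 to 457 lower. The late wound comparison called 15 genes with edgeR, and that of day 6 called 4 with edgeR and 469 with no filter, where limma as reported called 0. Leaving out a set gave 0 to 0 calls wherever a fit could be made. The cause of these shifts was not tested. The alternatives with at least 5 cells per set, with cluster 1 alone and without a day 0 or day 9 lin- set were not run for the tests of days, since no residual degree of freedom or no day was left, and the day 6 test was not run without day 6. The alternatives without hair-keratin cells, without the cells of melanocyte genes, with other cells of at least 1000 genes, with no replicate block and with 10 ppm for a cycle gene were chosen after seeing the data. The batch term in the comparisons of days is also the replicate number. The labels do not say which mouse of day 9 or 11 gave each unwounded sample, so wounds and unwounded skin were not paired by mouse. With no replicate block limma called 0 and 0 genes. Lineages were not tested as pairs, since of 3 mouse sets with cells of both lineages in these clusters 1 had 3 or more of each. With 1 residual degree of freedom, and lin+ cells in 1 set of 5, changes with healing or lineage of the size seen between mice were not detectable.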
